A study of Homo sapiens with 6 samples.

Results

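The genes described are the human cytochrome P450 genes: 47 of the 19775 genes tested on the array. A gene was taken where the platform annotation gave its probe set a single symbol made of CYP, a number, a letter or letters and a further number. Pseudogenes (symbols ending in P) and symbols with a suffix after a hyphen were left out. Each gene was read from 1 probe set; where it had several, the brightest by its mean over all 6 arrays was taken. Those mean levels are therefore a description only. A probe set that is high in 1 group can be chosen through that group: of 21 members with several probe sets, CYP2E1 and CYP2C8 were read from one that was not their brightest on the DLD-1α-Cat arrays alone. All samples were subclones of DLD-1, a line from a human colon cancer, grown without treatment for 96 h in a three-dimensional gel of type I collagen at 1 mg/ml. Of the 6 arrays, 3 came from the subclone labelled DLD-1Δα-Cat and the other 3 from DLD-1α-Cat. The labels do not spell out what Δα-Cat stands for, and they name each group as a subclone of DLD-1 without saying how many clones it holds.

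Cytochrome P450 enzymes are haem proteins that insert an oxygen atom into a substrate, using electrons passed on by a reductase. Those of the endoplasmic reticulum oxidise drugs, fatty acids, eicosanoids and vitamins, among others, and take electrons from POR. Those of mitochondria carry out some steps of making steroids and of activating vitamin D, and take electrons from ferredoxin. The intestinal epithelium is known for a barrier role of such enzymes against swallowed chemicals, with CYP3A and CYP1 enzymes as the best studied.

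Values are log2 intensities, so a difference of 1 is a 2-fold change on the array's scale. A positive difference means a higher value in DLD-1Δα-Cat. Each comes with its standard error (SE) from limma and a p adjusted by Benjamini and Hochberg's method over all 19775 genes; a gene passed below 0.05. CTNNA1, which encodes αE-catenin and served as a check of the labels, was lower in DLD-1Δα-Cat by a difference of -1.52 (SE 0.119, adjusted p = 0.000838). All 8 epithelial markers examined lay above the median level of all genes, and none of the 8 differed beyond the test. The labels do not name separate cultures for the 3 arrays of a group. The p-values therefore refer to the spread between these samples alone, which may be technical. The number of arrays limits the precision. A sign of RNA quality split the groups as well: the β-actin control, as the log2 ratio of its 3′ to its 5′ probe set, averaged 5.20 ± 0.159 (SD, n = 3) on the DLD-1Δα-Cat arrays. On the arrays of DLD-1α-Cat it averaged 4.69 ± 0.291 (SD, n = 3; two-sided exact permutation p = 0.1, the lowest possible with 3 against 3). The same ratio for GAPDH overlapped between the groups, at 0.749 ± 0.0670 against 0.656 ± 0.144 (SD, n = 3 each; exact permutation p = 0.4).

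Of the 47 P450 genes, 9 rose in DLD-1Δα-Cat and 0 fell. The 9 are 19.1% of the members, while 3.84% of all genes tested were higher and 1.67% lower. At an unadjusted limma p under 0.05, 11 members were higher and 2 lower, where 2334 and 1775 of all 19775 genes were. The 9 were CYP4B1, CYP4X1, CYP4F3, CYP2E1, CYP4F12, CYP11A1, CYP4Z1, CYP4F11 and CYP17A1, with differences from 0.92 to 2.95. The other 38 members lay between -0.46 and 1.13, and 36 of them differed by less than 0.5 in size. The median of all 47 was 0.043, beside -0.030 over all genes, so the change lay in a minority of members and not in the family as a whole. Arrays of the groups did not overlap in 12 members with DLD-1Δα-Cat higher and in 3 with it lower, where 14.1% and 13.1% of all genes did so. Among every probe set of these genes, 92 in all, 8 were higher and 0 lower, where 1.72% and 0.729% of all probe sets on the array were. With the β-actin ratio as a covariate, 3 members passed (CYP2E1, CYP4X1 and CYP11A1), and 0.293% of all genes were then higher. The counts above come from the fit without a replicate block. With the replicate number of the titles as a block, 9 members were higher and 2 lower, where 5.12% and 2.27% of all genes were. CYP17A1 was then no longer among the higher members, and CYP1A1 was.

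**Figure D1:**
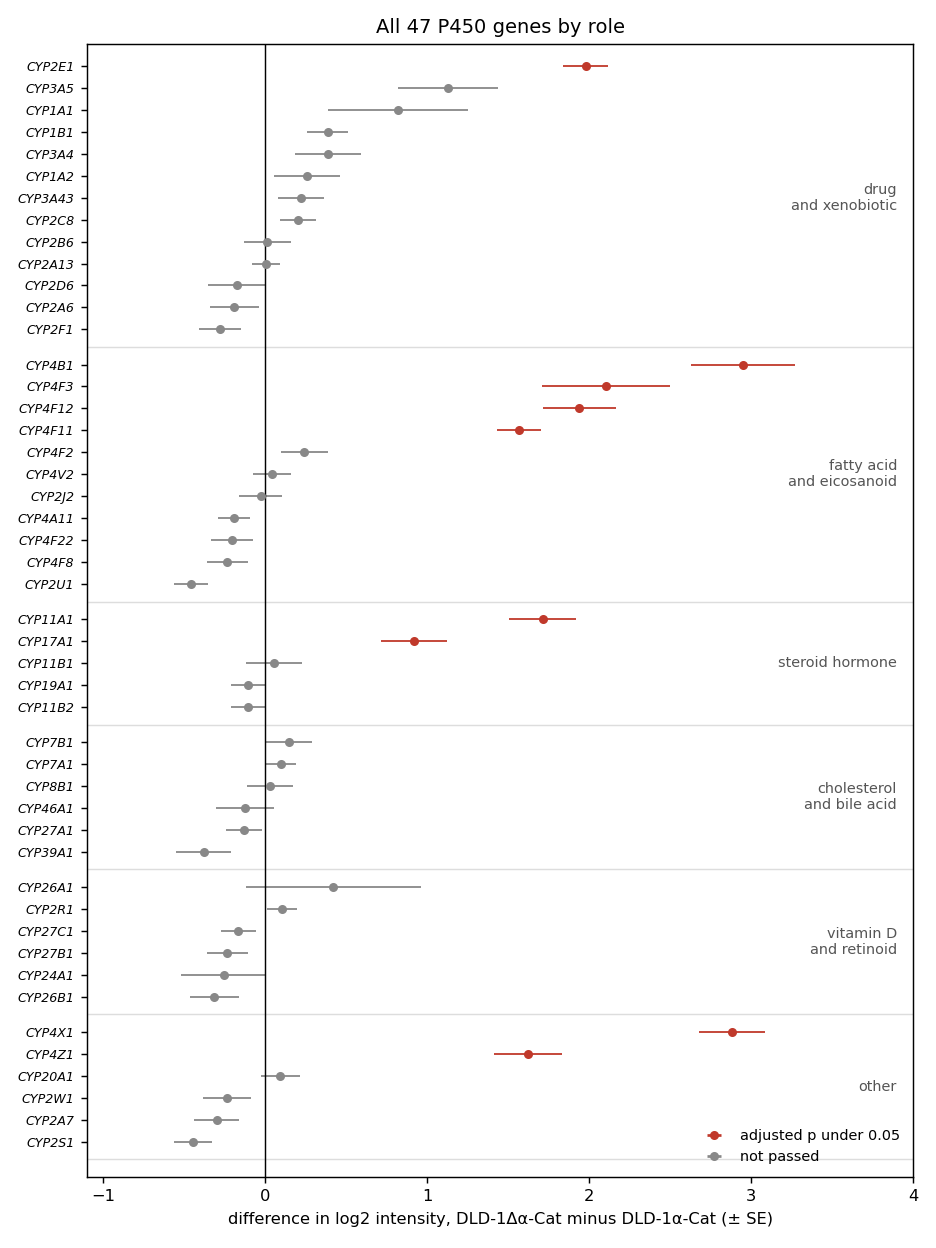
Difference in log2 intensity, DLD-1Δα-Cat minus DLD-1α-Cat, for each of the 47 P450 genes, grouped by role; bars are the standard error and red points passed at an adjusted p under 0.05. The 9 red points lie between 0.92 and 2.95, and no gene passed on the lower side.

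By role, the rises were uneven, in groups of a few genes each, where 3.84% of all genes were higher. Among 11 P450s of fatty acids and eicosanoids 4 rose, among 5 of steroid hormones 2, and among 13 of drugs and foreign chemicals 1. The last of these counts is near the share of all genes. Among 6 others 2 rose, CYP4X1 and CYP4Z1. Both are described below as acting on fatty acids or their amides, and by these substrates they would join the first group. None of 6 genes of cholesterol and bile acids and none of 6 genes of vitamin D and retinoids passed by limma. At an unadjusted limma p under 0.05, 0 of either group did, where 4109 of all 19775 genes did. By gene family, a split made after the values were seen, the CYP4 family held 6 of the 9: 6 of its 11 measured genes rose and their family median was 1.56. Outside CYP4, 3 of 36 members rose (8.33%, against 3.84% of all genes), with a median of 0.0090. In a set of this size that is not far from the share of all genes.

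The CYP4 enzymes hydroxylate fatty acids and related lipids, mostly at the far end of the chain. Their genes lie in 2 clusters, on chromosome 1 (CYP4B1, CYP4A11, CYP4X1 and CYP4Z1 among those measured) and on chromosome 19 (CYP4F22, CYP4F8, CYP4F3, CYP4F12, CYP4F2 and CYP4F11), while CYP4V2 lies apart from both. The promoters of CYP4 genes from both clusters are shown because members of each rose. They are the 250 bases before a transcript start in RefSeq (GRCh38.p14), written 5′ to 3′ on the strand of the gene. The windows are chr1:46798796-46799045 for CYP4B1, chr1:47023419-47023668 for the downstream of 2 listed starts of CYP4X1, and chr1:47066981-47067230 for CYP4Z1, all on the plus strand. Those of the other cluster are chr19:15641062-15641311 (plus strand) for CYP4F3, chr19:15934868-15935117 (minus strand) for the upstream of 2 listed starts of CYP4F11, and chr19:15898075-15898324 (minus strand) for CYP4F2, which did not pass. Capitals mark the TATA box letters TATAAA on the gene's strand. On either strand they mark the nuclear receptor motif AGGTCA, the xenobiotic response core GCGTG, the forkhead core TGTTTAC and the CCAAT box.
CYP4B1: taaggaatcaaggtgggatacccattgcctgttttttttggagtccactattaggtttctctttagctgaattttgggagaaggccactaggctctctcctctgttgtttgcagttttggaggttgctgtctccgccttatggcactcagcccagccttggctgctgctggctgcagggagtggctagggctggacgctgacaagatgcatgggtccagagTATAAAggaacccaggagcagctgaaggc
CYP4X1: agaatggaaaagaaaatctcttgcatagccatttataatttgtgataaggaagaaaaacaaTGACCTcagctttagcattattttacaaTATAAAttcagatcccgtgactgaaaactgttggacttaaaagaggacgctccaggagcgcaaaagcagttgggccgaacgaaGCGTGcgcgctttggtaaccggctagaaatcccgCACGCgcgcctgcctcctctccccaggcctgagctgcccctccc
CYP4Z1: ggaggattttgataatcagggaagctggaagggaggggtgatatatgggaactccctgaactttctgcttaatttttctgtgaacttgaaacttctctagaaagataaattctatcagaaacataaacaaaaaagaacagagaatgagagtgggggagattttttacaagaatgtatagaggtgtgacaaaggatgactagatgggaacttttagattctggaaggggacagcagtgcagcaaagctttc
CYP4F3: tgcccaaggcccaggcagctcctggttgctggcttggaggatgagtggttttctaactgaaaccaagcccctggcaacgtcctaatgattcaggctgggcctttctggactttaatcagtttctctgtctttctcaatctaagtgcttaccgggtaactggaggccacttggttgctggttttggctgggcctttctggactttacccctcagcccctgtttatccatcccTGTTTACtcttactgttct
CYP4F11: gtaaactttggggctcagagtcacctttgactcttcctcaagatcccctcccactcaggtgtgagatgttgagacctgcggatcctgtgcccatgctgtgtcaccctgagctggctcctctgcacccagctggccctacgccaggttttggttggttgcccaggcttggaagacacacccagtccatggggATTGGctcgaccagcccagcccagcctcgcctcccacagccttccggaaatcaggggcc
CYP4F2: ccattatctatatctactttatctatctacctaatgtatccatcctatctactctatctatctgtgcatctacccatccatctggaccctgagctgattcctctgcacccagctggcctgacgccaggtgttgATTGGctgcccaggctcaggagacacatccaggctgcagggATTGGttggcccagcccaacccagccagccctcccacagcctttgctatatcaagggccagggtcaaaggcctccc

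CYP4B1 oxidises fatty acids and activates some inhaled toxins. It stood at 7.45, 8.31 and 8.72 on the DLD-1Δα-Cat arrays and at 4.89, 5.53 and 5.21 on the DLD-1α-Cat arrays. Every DLD-1Δα-Cat array lay above every DLD-1α-Cat array, with a difference of 2.95 (SE 0.320, adjusted p = 0.00330); the DLD-1α-Cat values are dim, so its size depends on the floor of the array. Its dimmer probe set differed by 0.90 and did not pass (adjusted p = 0.240 over every probe set). CYP4X1, a P450 of fatty acid amides such as anandamide, was at 7.05, 6.97 and 6.93 against 3.61, 4.42 and 4.29. Its 3 DLD-1Δα-Cat arrays lay close together and far above the others, with a difference of 2.88 (SE 0.206, adjusted p = 0.000653). CYP4Z1, a fatty acid hydroxylase best known from the mammary gland, was dim throughout, at 4.87, 5.22 and 4.37 against 3.36, 3.12 and 3.12. Its arrays did not overlap either (difference 1.62, SE 0.209, adjusted p = 0.00664). CYP4A11, a fatty acid hydroxylase of liver and kidney that lies between CYP4B1 and CYP4X1 among the genes tested, differed by -0.19 and did not pass (adjusted p = 0.312), although its arrays did not overlap.

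The CYP4F genes encode enzymes that hydroxylate long-chain lipids, among them the inflammatory leukotriene LTB4, which CYP4F3 inactivates in neutrophils. CYP4F3 was at 7.08, 7.54 and 7.29 in DLD-1Δα-Cat and at 4.21, 5.91 and 5.48 on the arrays of DLD-1α-Cat. The groups did not overlap, but the DLD-1α-Cat arrays were spread widely, with replicate 1 the lowest. The difference was 2.10 (SE 0.396, adjusted p = 0.0269). When arrays were left out in turn, CYP4F3 passed in only 2 of 6 cases: without replicate 1, 2 or 3 of DLD-1Δα-Cat, or without replicate 3 of DLD-1α-Cat, its adjusted p was 0.0637, 0.0980, 0.0826 and 0.0885. CYP4F12, an oxidase of arachidonic acid and of some antihistamines, was at 7.63, 8.42 and 8.10 against 6.26, 6.28 and 5.78. All 3 DLD-1Δα-Cat arrays were above the others (difference 1.94, SE 0.224, adjusted p = 0.00436). CYP4F11, which hydroxylates fatty acids and vitamin K, was at 7.33, 7.63 and 7.50 against 5.71, 5.97 and 6.09, again without overlap (difference 1.56, SE 0.135, adjusted p = 0.00126). The 3 further CYP4F genes of the cluster did not pass: CYP4F2 differed by 0.24 (adjusted p = 0.391), CYP4F22 by -0.20 (adjusted p = 0.411) and CYP4F8 by -0.23 (adjusted p = 0.348). Paralogs of the cluster are similar in sequence. The probe set of CYP4F12 is of the type shared among transcripts and that of CYP4F2 of the type prone to cross-hybridisation, so signal of these genes may be partly shared. A further probe set assigned to both CYP4F2 and CYP4F3 differed by 0.63 (adjusted p = 0.307 over every probe set).

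**Figure D2:**
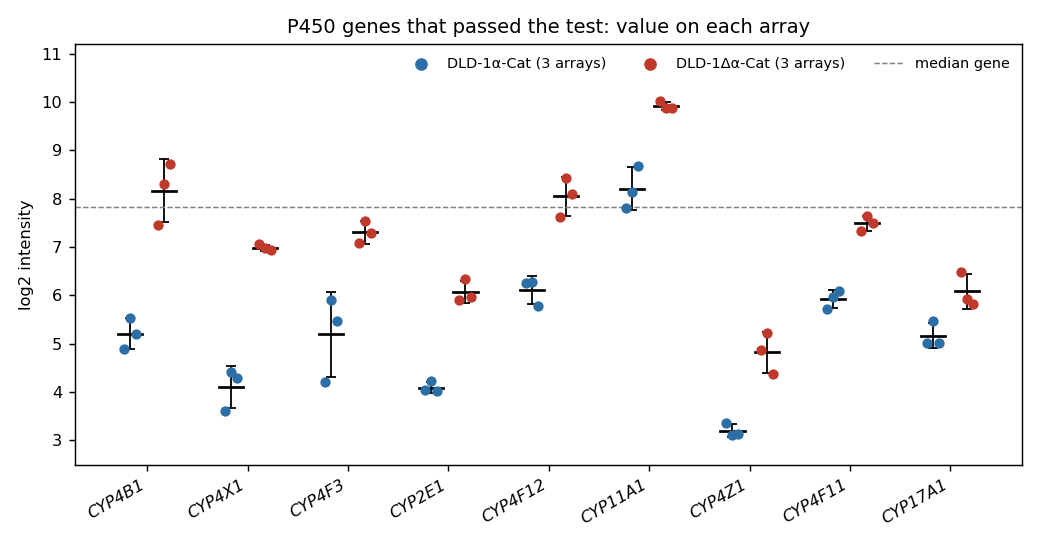
Log2 intensity on each array for the 9 P450 genes that passed, DLD-1α-Cat in blue and DLD-1Δα-Cat in red; bars are the mean and SD of 3 arrays and the dashed line is the median level of all genes. The arrays of the groups do not overlap in any of the 9 genes, and CYP11A1 is the gene whose DLD-1α-Cat mean lies above the dashed line.

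The other genes around the clusters were examined after the P450 values had been seen. In sets this small, 0 higher and 1 lower are near the shares of all genes (3.84% higher and 1.67% lower) and show nothing particular to these places. On chromosome 1, 3 of 4 P450 genes were higher, whereas among the 5 tested genes on each side and the pseudogene CYP4Z2P inside the cluster, 0 of 11 were higher and 1 was lower. That gene was PDZK1IP1, a small membrane protein of epithelia, with a difference of -1.44 (SE 0.211, adjusted p = 0.0110). On chromosome 19, 3 of 6 P450 genes were higher, and of 14 other genes 0 were higher and 1 was lower. The lower one was UCA1, a long noncoding RNA that lies between CYP4F12 and CYP4F2 in gene order, at 10.28 in DLD-1Δα-Cat and 12.38 on the arrays of DLD-1α-Cat (difference -2.10, SE 0.165, adjusted p = 0.000847). Its nearest neighbours among the tested genes, OR10H1 and CYP4F2, did not pass. The medians of these 11 and 14 other genes were 0.077 and -0.16.

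**Figure D3:**
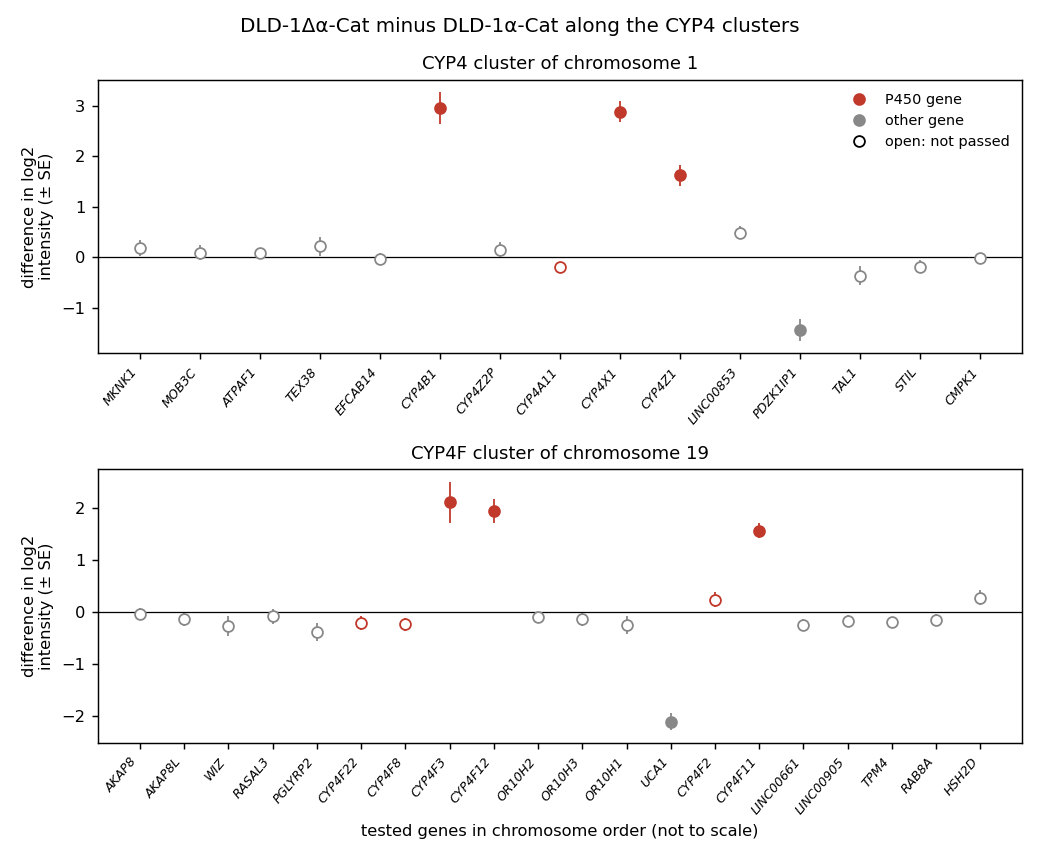
Difference in log2 intensity (± SE) of tested genes in chromosome order, not to scale, along the CYP4 cluster of chromosome 1 and the CYP4F cluster of chromosome 19; P450 genes are red, others grey, and open circles did not pass. The P450 genes that passed lie between 1.56 and 2.95, while PDZK1IP1 and UCA1, at -1.44 and -2.10, are the other genes that passed.

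Among the CYP4F promoters, sequence likeness ran across the groups of called and uncalled genes. Over 15 pairs of 6 windows of CYP4F genes, a global alignment gave identical bases at 46.0% to 68.0% of the window, with a median of 51.2%. Pairs of a CYP4F window with one of CYP4B1, CYP4X1 or CYP4Z1 gave 45.2% to 55.2% under the same alignment. The CYP4F median lay inside that range, so most of this likeness is not particular to CYP4F genes. CYP4F3 and the downstream start of CYP4F11, both from genes that rose, shared 68.0%, and their longest common run of 19 bases was tgattcaggctgggccttt. The upstream start of CYP4F11 shared as much, 68.0%, with CYP4F2, which did not pass, and their longest common run was tcctctgcacccagctggcc. TGTTTAC, a core of forkhead factor sites, was found on either strand in the window of CYP4F3 and in that of the downstream start of CYP4F11. Altogether 4 of the 34 P450 genes whose windows were searched held it (11.8%), against 3.66% of all genes in the promoter table. P450 genes on the chromosome that carries CYP7A1, CYP7B1, CYP11B1 and CYP11B2 were left out of the 34. Genes of that chromosome stay in the shares of all genes, so the sets compared were not chosen alike. TATAAA occurred on the gene's strand in 13 of 34 P450 genes (38.2%, against 8.38% of all genes), among them CYP4B1, where it starts 29 bases before the transcript start. The motif AGGTCA, a nuclear receptor half-site, was found in 10 of 34 (29.4%, against 14.6%), and GCGTG, the core of the xenobiotic response element, in 9 of 34 (26.5%, against 36.2%). CCAAT was found in 16 of 34 (47.1%, against 37.0%). CAAAGTCCA, a type of HNF4 site, searched on both strands, was in 6 of 34 genes (17.6%), and all 6 (CYP2A6, CYP2A7, CYP2A13, CYP2B6, CYP2C8 and CYP2R1) were among those that did not pass; 0.403% of all genes held it. Of the 9 genes that rose, 8 had a window, all but CYP4F12, so most of the 34 genes searched did not pass. Of these 8 genes, 3 held TATAAA, 3 AGGTCA, 2 CCAAT, 2 GCGTG, 2 TGTTTAC and 0 CAAAGTCCA. The other genes of the 34 with TGTTTAC, CYP2C8 and CYP3A43, did not pass. These motifs were chosen after the members' results were known, several of these windows belong to near-identical genes, and a match is not a binding site.

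CYP2E1, which oxidises ethanol and small solvents and is best known from liver, was at 5.90, 6.34 and 5.97 in DLD-1Δα-Cat and at 4.04, 4.22 and 4.01 on the arrays of DLD-1α-Cat. The arrays did not overlap (difference 1.98, SE 0.140, adjusted p = 0.000635). This call rests on 1 of its 4 probe sets, which was chosen through its DLD-1Δα-Cat values and so had to be high there. On the DLD-1α-Cat arrays alone another probe set was brighter, with a mean of 4.81 against 4.09, and it differed by -0.21. The remaining 2 differed by 0.47 and 0.31, and none of these 3 passed. CYP11A1 cleaves the side chain of cholesterol in mitochondria, the first step of steroid hormone synthesis. It was measured at 10.02, 9.87 and 9.88 against 7.81, 8.13 and 8.68, by a single probe set. Every DLD-1Δα-Cat array lay above every DLD-1α-Cat array, and the difference was 1.71 (SE 0.209, adjusted p = 0.00525). CYP11A1 was the one called member whose DLD-1α-Cat mean lay above the median level of all genes; the other 8 started below it, where log2 values flatten towards background and folds depend on the floor of the array. CYP17A1, a hydroxylase and lyase on the way to androgens, was at 6.49, 5.93 and 5.83 against 5.02, 5.46 and 5.01. It lay just inside the threshold (difference 0.92, SE 0.204, adjusted p = 0.0471). It did not pass with the replicate number of the titles as a block (adjusted p = 0.0712), and with arrays left out in turn it passed in 1 of 6 cases, that without replicate 2 of DLD-1α-Cat (adjusted p = 0.0366). Without replicate 1, 2 or 3 of DLD-1Δα-Cat, or without replicate 1 or 3 of DLD-1α-Cat, its adjusted p ranged from 0.0716 to 0.166. Its second probe set differed by 0.095. Of the other steroid P450 genes, CYP19A1, the aromatase of oestrogen synthesis, differed by -0.10, CYP11B1 by 0.054 and CYP11B2 by -0.11, and none of the 3 passed.

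**Figure D4:**
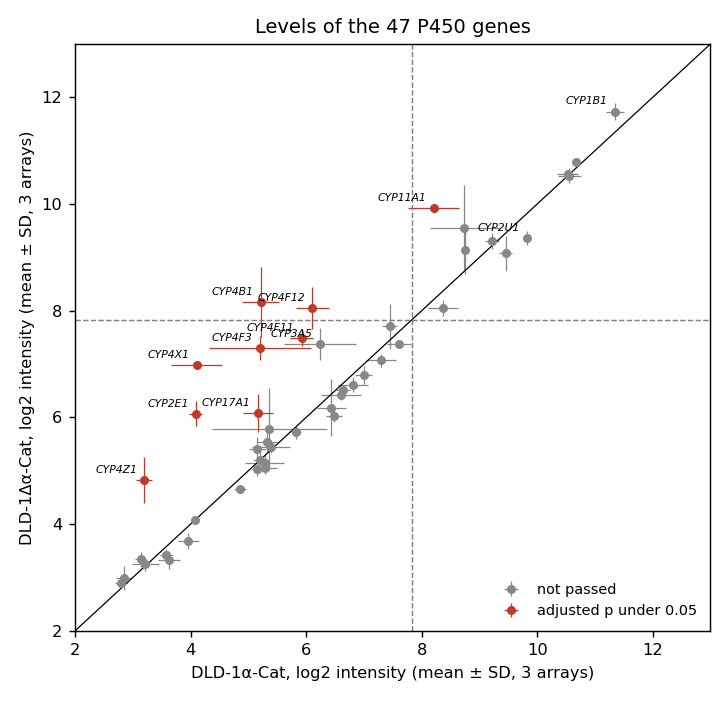
Mean log2 intensity (± SD, 3 arrays) of the 47 P450 genes in DLD-1α-Cat (horizontal) against DLD-1Δα-Cat (vertical); the solid line marks equality, dashed lines the median level of all genes, and red points passed. The 9 red points lie above the line, 8 of them left of the dashed vertical line. Of the members brighter than the median gene, CYP11A1 and CYP1A1 lie 1.71 and 0.82 above the line, and the others lie nearer to it.

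Just outside the threshold was CYP2U1, a fatty acid hydroxylase, at 9.51, 9.27 and 9.30 in DLD-1Δα-Cat and 9.88, 9.76 and 9.83 on the arrays of DLD-1α-Cat. Its arrays did not overlap, with a difference of -0.46 (SE 0.105, adjusted p = 0.0520), and with the replicate number as a block it passed (adjusted p = 0.0454). CYP2S1, an enzyme of epithelia outside the liver, was at 5.94, 5.99 and 6.18 against 6.39, 6.42 and 6.63. This too was a separation without overlap (difference -0.44, adjusted p = 0.0758), and it passed with the block (adjusted p = 0.0413). Thus 2 of 47 members were lower in the blocked fit and 9 higher, where 2.27% and 5.12% of all genes were; 2 of 47 is not far from that share.

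The P450s best known from the gut did not pass. CYP3A5, a drug oxidase of intestine and liver, was at 7.65, 7.40 and 7.06 against 5.65, 6.90 and 6.17. No array overlapped, but replicate 2 of DLD-1α-Cat stood close to the DLD-1Δα-Cat arrays. The difference was 1.13 (SE 0.308, adjusted p = 0.0850), and without that replicate it was 1.46 and passed (adjusted p = 0.0193). All 4 probe sets of CYP3A5 were higher in DLD-1Δα-Cat, by 0.31 to 1.55, and none passed over every probe set. CYP3A4, its better known relative, differed by 0.39 (adjusted p = 0.332). Its arrays overlapped, and replicate 1 of DLD-1Δα-Cat, at 9.61, was the highest. Of its 5 probe sets, the one read here had the largest difference, and the others lay between -0.052 and 0.28.

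The CYP1 enzymes oxidise polycyclic hydrocarbons and are induced by the aryl hydrocarbon receptor AHR. CYP1A1 was at 8.90, 9.34 and 10.44 in DLD-1Δα-Cat and at 8.27, 8.54 and 9.41 on the arrays of DLD-1α-Cat. The groups overlapped, and in both the array of replicate 3 was the highest. The difference of 0.82 (SE 0.430) had an adjusted p of 0.328, and 0.0241 with the replicate number as a block. The difference was 0.38 when replicate 3 of DLD-1Δα-Cat was left out and 1.15 when replicate 3 of DLD-1α-Cat was, and neither passed. CYP1B1, the CYP1 enzyme of tissues outside the liver, was at 11.56, 11.77 and 11.86 against 11.29, 11.52 and 11.23. Its arrays did not overlap, and the difference of 0.39 (SE 0.125) did not pass (adjusted p = 0.135). Of its 4 probe sets 3 were higher in DLD-1Δα-Cat and the dimmest was lower, by -0.33. CYP1A2, the liver enzyme of caffeine breakdown, differed by 0.26 and did not pass. AHR itself rose by 0.43 (SE 0.0911, adjusted p = 0.0396), from 11.77, 11.89 and 11.76 to 12.22, 12.26 and 12.23. Its repressor AHRR, named after its values were seen, was at 8.47, 9.31 and 9.31 against 7.19, 8.21 and 8.09. This difference of 1.20 did not pass in the fit without the block (adjusted p = 0.0842). TIPARP, a target of AHR and also chosen afterwards, differed by 0.061 (adjusted p = 0.753).

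The brighter members of the remaining groups stayed close together in the subclones. CYP39A1, an oxysterol hydroxylase of bile acid synthesis, differed by -0.38 (adjusted p = 0.259). CYP26B1, which breaks down retinoic acid, differed by -0.31 (adjusted p = 0.293). CYP2R1, which makes the storage form of vitamin D, differed by 0.10 (SE 0.0912, adjusted p = 0.559). CYP20A1, whose substrate is not settled, differed by 0.093 (adjusted p = 0.689). CYP4V2, a fatty acid hydroxylase known from a crystalline disease of the retina, differed by 0.043 (SE 0.117, adjusted p = 0.861). CYP2J2, which makes epoxides of arachidonic acid, differed by -0.028 (SE 0.133, adjusted p = 0.921). The directions of CYP20A1, CYP4V2 and CYP2J2 turned in some other settings. CYP26A1, the other retinoic acid hydroxylase, had the largest standard error among the members, at 4.90, 6.17 and 6.27 against 5.63, 6.19 and 4.26. Its difference of 0.42 had an SE of 0.540 (adjusted p = 0.688) and turned to -0.13 without replicate 3 of DLD-1α-Cat. The P450s that carry other symbols did not pass either: thromboxane synthase (TBXAS1) differed by -0.41 (adjusted p = 0.268) and prostacyclin synthase (PTGIS) by -0.31 (adjusted p = 0.373).

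The partners that feed electrons to P450s showed 1 lower and 0 higher among 10 measured, with a median of -0.075; 5.52% of all genes passed in either direction. CYB5R2, a cytochrome b5 reductase, fell from a range of 10.10 to 10.27 to one of 8.79 to 9.01 (difference -1.26, SE 0.107, adjusted p = 0.00117). POR, the reductase that serves the enzymes of the endoplasmic reticulum, differed by -0.080 (SE 0.101, adjusted p = 0.683), and FDX1, the ferredoxin of the mitochondrial ones such as CYP11A1, by -0.070 (SE 0.0891, adjusted p = 0.684). Of 29 measured regulators 2 rose and 1 fell, with a median of 0.079. These were PPARG, a fatty acid sensor (0.54, adjusted p = 0.0387), AHR, and the xenobiotic receptor NR1I3, known as CAR (-0.46, adjusted p = 0.0467). With arrays left out in turn, AHR and NR1I3 passed in 1 of 6 cases and PPARG in 0, so of these 3 none passed without replicate 1, 2 or 3 of DLD-1Δα-Cat, or without replicate 1 or 3 of DLD-1α-Cat.

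Of 56 measured genes of conjugation, other drug oxidation and export, 2 rose and 4 fell, with a median of 0.019; over all genes 5.52% passed in either direction. ABCB1, the drug export pump P-glycoprotein, fell from 8.02, 7.93 and 8.22 to 6.65, 6.57 and 6.54 (difference -1.47, SE 0.109, adjusted p = 0.000730), and both of its probe sets passed. The glutathione transferases GSTM1 (-0.89, adjusted p = 0.00795), GSTM2 (-0.85, adjusted p = 0.00755) and GSTM4 (-0.69, adjusted p = 0.0304) fell, and as near-identical copies they may share signal. FMO4, a flavin monooxygenase, rose by 1.93 (adjusted p = 0.0122), and CES1, a carboxylesterase best known from liver, by 0.88 (adjusted p = 0.0230). With arrays left out in turn, CES1 passed in 1 of 6 cases (adjusted p up to 0.0943), GSTM4 in 2 (up to 0.118) and FMO4 in 5 (up to 0.0658). Neither probe set of GSTM4 passed over every probe set. With the replicate number as a block 12 genes of this list passed (7.39% of all genes did). Leaving out replicate 2 of DLD-1α-Cat gave 10 (6.08% of all genes), and leaving out its replicate 3 gave 3 (2.29% of all genes).

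Markers of other cell types were read beside these results. Of 8 hepatocyte markers SERPINA1, which intestinal epithelium also makes, rose by 1.77 (adjusted p = 0.00571). The summed level of the 8, here the log2 of their added unlogged intensities, ranged from 11.98 to 12.66 in DLD-1Δα-Cat. On the arrays of DLD-1α-Cat it ranged from 10.56 to 10.86. SERPINA1 alone averaged 12.09 and 10.33. The mean log2 value of the 8 overlapped between the groups, at 6.26 to 6.32 against 5.93 to 6.29. Albumin (ALB) stood at 4.43 and 4.55, in the dim range of the array, and the 7 markers other than SERPINA1 lay below the median level of all genes. Of 6 measured leukocyte markers LYZ rose by 1.54 and CD14 fell (-1.17), with summed levels of 7.79 to 7.98 against 8.29 to 8.56. Of 10 fibroblast and 7 endothelial markers, 2 and 1 had an unadjusted limma p under 0.05, as did 4109 of all 19775 genes. None of these markers passed by limma, and all lay below the median level. Their summed levels were 8.34 to 8.44 against 8.25 to 8.84 and 8.03 to 8.18 against 8.17 to 8.36. Their part in the P450 results was not tested. In bulk samples like these, more cells with a transcript and more of it per cell cannot be told apart.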

How the data were processed

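Total RNA of 6 samples was hybridised to Affymetrix arrays with 54675 probe sets. The deposited values are log2 intensities that the authors computed with RMA; the submitters' processing notes name Expression Console as the program and give no version. RMA sets all arrays to 1 distribution, which hides a shift common to all transcripts. Values ran from 1.95 to 15.15, with array medians of 6.12 to 6.15, and no detection calls were used.

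Control probe sets (62) were left out. Of the rest, 41091 carried 1 symbol in the platform annotation, 1801 several, and 11721 are unnamed here; 41037 matched RefSeq by gene ID and no symbol changed. Dim genes were kept. The test was lmFit and eBayes of limma 3.58.1 (R 4.3.3) on all 6 arrays; the code was tested on simulated data. Named were called P450 genes, P450 genes above the median level, the 5 largest uncalled differences, and called genes of the lists of partners. The members, lists and most tests were chosen with earlier results of these data known. Alternatives were quantile normalization, the replicate block, no dim probe sets, averaged probe sets, a fit of every probe set, other variance models, array weights, the β-actin ratio as a covariate, and leaving out each array.

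Titles number the replicates of both groups alike. Deviations of same-numbered arrays correlated at 0.225, 0.376 and 0.122, each above 0.1. The numbers were therefore read as a pairing of the samples, from the values alone, since the labels state no pairing. Unless a block is named, the results given here come from the fit without this pairing. The replicate block fit, which uses it, was run as an alternative.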

Additional observations from a re-analysis of the deposited data

Results flagged for a closer look

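A probe set outside the 47 genes carried a signal that differed between the groups. It is assigned to both CYP21A2, a steroid hydroxylase of the adrenal cortex, and its pseudogene CYP21A1P, so it has no single gene name. It stood at 7.14, 7.48 and 7.66 in DLD-1Δα-Cat and at 6.24, 6.36 and 6.33 on the DLD-1α-Cat arrays, which did not overlap (difference 1.12, SE 0.149, limma adjusted p = 0.0131 over every probe set). It was the 1 probe set to pass among 21 P450 probe sets of several symbols, pseudogenes or antisense genes; 1.72% of all probe sets were higher.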

How the results depend on the processing

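Of the 9 P450 genes that rose, 8 passed after quantile normalization, in the replicate block fit and in the fit of every probe set, and 9 with averaged probe sets, with trend and robust estimation and with array weights. Of all genes, 3.86%, 5.12% and 2.59% were higher in the first 3 settings and 3.94%, 5.82% and 5.43% in the last 3. The count of higher P450 genes was 5 of 25 without dim probe sets (6.23% of all genes), 1 of 47 without moderation (0.339%) and 3 of 47 with the β-actin ratio as a covariate (0.293%). Without an array it was from 7 to 10, where 1.63% to 4.32% of all genes were higher. The count of lower ones was 2 with the replicate block (2.27% of all genes), without dim probe sets (3.53%) and with array weights (2.78%), 1 with trend and robust estimation (2.85%), and 0 in each of the 6 runs without an array. Called electron partners numbered 2 of 10 with trend and robust estimation and 0 with the β-actin ratio (1 to 1 without an array). Called regulators numbered 0 in the fit of every probe set, without moderation and with the β-actin ratio (0 to 2 without an array). Conjugation and transport genes numbered 12 with the replicate block, 10 with averaged probe sets and with trend and robust estimation, 1 without moderation, 11 with array weights and 0 with the β-actin ratio (3 to 10 without an array). Genes passing in either direction among all were 7.39%, 5.84%, 8.67%, 0.582%, 8.20% and 0.425% in these 6 settings. In the fit of every probe set they were 3.58%, and without an array 2.24% to 6.08%. The direction turned with the β-actin ratio for CYP20A1 (-0.11), CYP4V2 (-0.080) and CYP26A1 (-1.03), and with array weights for CYP2J2 (0.0053). Without an array CYP4V2 ranged from -0.024 to 0.15, CYP2J2 from -0.11 to 0.085 and CYP26A1 from -0.13 to 0.86; the causes were not tested. The replicate block changed the call of CYP17A1, CYP2U1, CYP2S1 and CYP1A1 and of no other P450 gene. Called regulators numbered 4 of 29 with that block (7.39% of all genes) and 3 without it. The median difference of the P450 genes stayed between 0.013 and 0.093 without an array.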

Other observations

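Some P450 probe sets carry more than 1 symbol or that of an antisense gene and were left out of the 47 genes. CYP51A1, the demethylase of cholesterol synthesis, shares 2 probe sets with LRRD1; the brighter was at 13.36, 13.30 and 13.30 in DLD-1Δα-Cat and 13.30, 13.31 and 13.12 in DLD-1α-Cat, a difference of 0.081 (limma adjusted p = 0.749 over every probe set). The dimmer was at 9.72, 9.67 and 9.50 against 9.37, 9.26 and 9.09; its arrays did not overlap, and the difference of 0.39 did not pass (adjusted p = 0.175). CYP3A7, the P450 of fetal liver, shares 2 probe sets with the readthrough transcript CYP3A7-CYP3A51P. The brighter of these was at 11.05, 10.81 and 10.36 against 10.33, 10.47 and 10.26, a difference of 0.39 (adjusted p = 0.354). The dimmer differed by 0.35 without overlap of the arrays and did not pass (adjusted p = 0.272). A probe set of CYP2B6 and its pseudogene CYP2B7P was at 6.55, 5.99 and 5.78 against 5.52, 5.18 and 5.30; its arrays did not overlap, and the difference of 0.77 did not pass (adjusted p = 0.121). CYP2B6 is also among the 47 genes, read from a probe set that carries its symbol alone and differed by 0.013. That probe set is of the type prone to cross-hybridisation. Its other, dimmer probe set differed by 0.61 without overlap of the arrays and did not pass (adjusted p = 0.142 over every probe set). The antisense RNA CYP1B1-AS1 differed by 0.85 on its brighter probe set, which did not pass (adjusted p = 0.205).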
